A study of Mus musculus with 16 samples.

Results

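Imprinted genes were followed in E10.5 mouse hearts with fewer copies of Ing4, of Ing5 or of both (E10.5 is embryonic day 10.5). The 34 genes were listed by symbol and found through their Entrez gene IDs, and 34 of 34 were among the 27179 gene IDs of the count table. They belong to 16 imprinted clusters or single loci, of which 7 have several listed genes. By textbook knowledge of the mouse, 19 are expressed from the paternal allele, 14 from the maternal allele, and Gnas gives transcripts of either kind. For 8 of the 34 (Cd81, Copg2, Ppp1r9a, Ube3a, Ddc, Inpp5f, Rasgrf1 and Gnas) this is known only of some tissues, transcripts or stages. RNA sequencing counted reads per gene without regard to allele, so the values below are total levels and say nothing of which parental copy was read.

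Each genotype was represented by 4 embryos, 16 in all: Ing4+/- Ing5-/- (3 of the 4 alleles of both genes lost), Ing5-/- with both Ing4 alleles, Ing4+/- with both Ing5 alleles, and wild-type. The labels name no transgene and do not describe the mutant alleles further. The ING4 and ING5 proteins read methylated histone H3 and are subunits of complexes that acetylate histones. The series title names histone H3 acetylation and the epicardium as subjects of the study, and no source used here names imprinted genes as a subject.

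In an imprinted gene, a DNA methylation mark set in the egg or the sperm keeps 1 parental copy silent in the offspring. Such genes lie in clusters that share an imprinting control region, and a cluster often pairs protein-coding genes with a long non-coding RNA of the opposite parental origin. Many paternally expressed members promote growth of the embryo and many maternally expressed members restrain it. Several, such as H19, Igf2, Mest, Cdkn1c and Grb10, are among the abundant RNAs of mesodermal tissues at this stage.

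Libraries held 19753100 to 35664331 counted reads, of which the 34 genes took 2.30 to 2.68%. The embryos came from 7 litters. Levels are CPM, a gene's reads relative to the counted reads of its library, with library sizes scaled by TMM. RPKM divides them by gene length. Fold changes are log2 values ± SE from edgeR's quasi-likelihood test over 15785 genes, and adjusted p-values are Benjamini-Hochberg values over all of them; a gene is called under 0.05. The biological coefficient of variation between embryos was 0.159. The labelled tissue bore its markers: 13 of 13 cardiomyocyte genes were read in every library, with a summed level of 22100 to 36600 CPM. Ing5 still gave 19.2 to 25.1 CPM in Ing4+/- Ing5-/- and 18.5 to 29.3 CPM in Ing5-/- hearts, against 33.7 to 42.3 CPM in Ing4+/- and 28.9 to 36.9 CPM in wild-type hearts. The fall of Ing5 against wild-type hearts was called in Ing4+/- Ing5-/- hearts (log2 fold change -0.68 ± 0.13, edgeR adjusted p = 0.0122) and not in Ing5-/- hearts (-0.51 ± 0.12, adjusted p = 0.275). Ing4 stood at 32.5 to 36.2 CPM in Ing4+/- Ing5-/-, 43.5 to 60.7 CPM in Ing5-/- and 32.0 to 36.3 CPM in Ing4+/- hearts, against 28.2 to 44.4 CPM in wild-type hearts. Its level in Ing4+/- hearts overlapped that in wild-type hearts (log2 fold change -0.21 ± 0.12, edgeR adjusted p = 0.963), and Ing5 in Ing5-/- hearts overlapped that in wild-type hearts too, so counts of whole genes checked both the Ing4+/- and the Ing5-/- labels only weakly. The libraries Ing5-/- 1, Ing4+/- 4 and Ing4+/- Ing5-/- 2 stood apart from the others, the last of them least, so results are also given without them where they rest on them. They held the highest of the 16 levels for 21%, 17.6% and 10.7% of all genes tested, and the lowest for 20%, 20.5% and 9.05%. The remaining hearts reached at most 6.98% and 7.4%, both in wild-type 2. Ing4+/- 4 held Xist at 16 CPM together with Y-linked genes at a summed 199 CPM, and the other hearts had Xist either at 3.35 CPM or less or at 372 CPM or more. Of the 32 imprinted genes tested, Ing5-/- 1 held the highest of the 16 levels for 13 and the lowest for 9, against 21% and 20% of all genes tested.

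Levels of the imprinted genes spanned from abundant to barely detectable RNAs. Per length (RPKM, mean of 16 libraries), H19 led at 3914, followed by Mest at 1866 and Cdkn1c at 1239.8. A further 5 genes (Grb10, Gnas, Cd81, Plagl1 and Ndn) had a mean of 100 RPKM or more, 13 lay between 10 and 100, 7 between 1 and 10, and 6 below 1. The 6 lowest were Slc22a18, Magel2, Kcnq1ot1, Rtl1, Snrpn and Rasgrf1. Kcnq1ot1 ranks there only per length: it is counted over 83437 bases and had 4.85 to 58.0 CPM. Of the 6, Snrpn (0 to 7 reads a library) and Rasgrf1 (0 to 15 reads) did not pass the filter on low counts, which left 32 genes for the tests. Snrpn had 0 reads in Ing4+/- Ing5-/- 2, Ing5-/- 1 and Ing4+/- 4, where 0 reads allow up to 0.125, 0.0976 and 0.131 CPM by counting error. Snurf, which overlaps Snrpn on the same strand, was listed at 0 reads in all 16 libraries, so the level of Snrpn is uncertain.

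**Figure D1:**
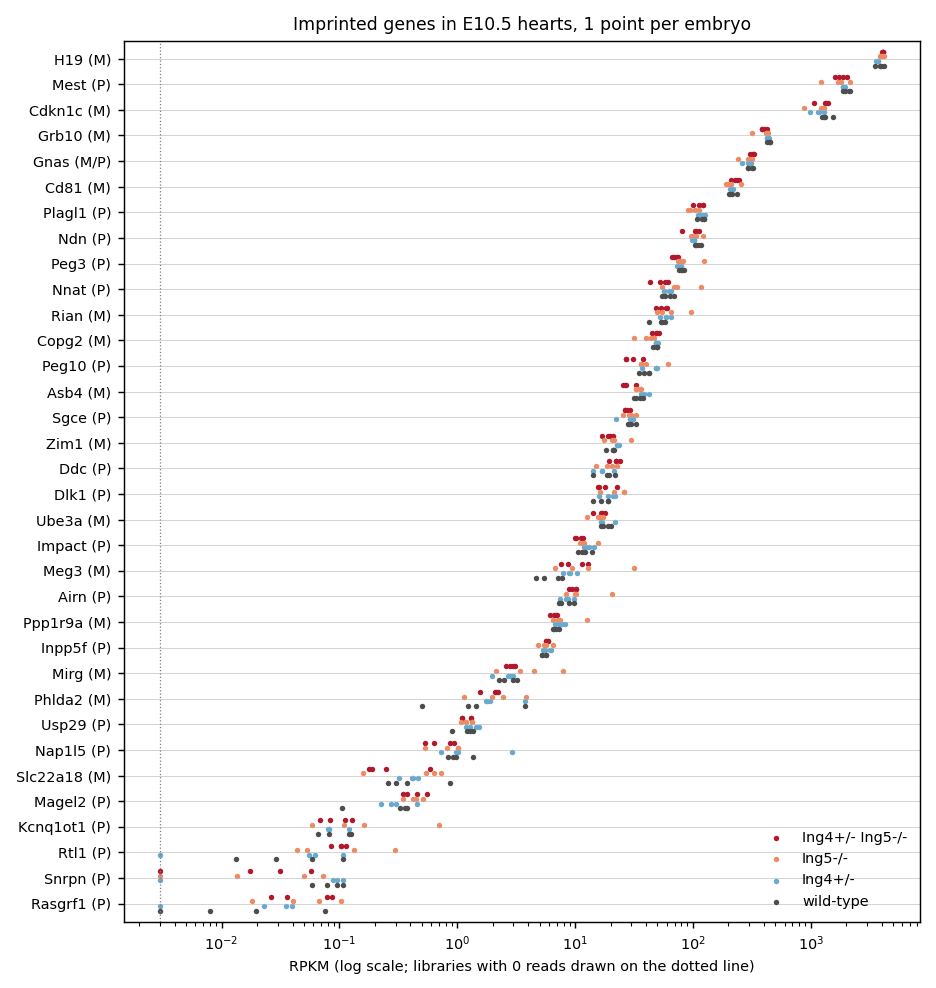
Level of the 34 imprinted genes in RPKM (log axis), with 1 point per heart coloured by genotype and genes ordered by their mean. M, P and M/P mark genes known to be expressed from the maternal allele, the paternal allele or both. The range runs from H19 (mean 3914 RPKM) to Rasgrf1 (mean 0.0411 RPKM), and the genotypes overlap at most genes.

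The Peg10-Sgce cluster on mouse chromosome 6 held Asb4, the 1 imprinted gene that edgeR called with all 16 libraries, in 1 of the 5 pairwise comparisons made. It comprises Sgce, which encodes a sarcoglycan of the cell membrane, Peg10, a retrotransposon-derived gene needed for the placenta, Ppp1r9a, which encodes the actin-binding protein neurabin, and Asb4, which encodes an ankyrin-repeat and SOCS-box protein of ubiquitin ligases. Sgce (gene ID 20392, chr6:4674350-4747204, minus strand) and Peg10 (gene ID 170676, chr6:4747306-4760517, plus strand) lie head to head with 101 bases between them and are paternally expressed. Ppp1r9a (gene ID 243725, chr6:4902872-5165661) and Asb4 (gene ID 65255, chr6:5383386-5433022) follow on the plus strand and are maternally expressed. For Ppp1r9a this is known only of some tissues, transcripts or stages. The 4 genes span 759 kb (GRCm38, the same assembly as mm10).

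Asb4 stood at 89.4, 86.7, 83.8 and 108 CPM in Ing4+/- Ing5-/- hearts, 117, 108, 119 and 108 CPM in Ing5-/- hearts, 127, 123, 120.2 and 139.6 CPM in Ing4+/- hearts, and 108, 124, 117 and 104 CPM in wild-type hearts. All 4 Ing4+/- Ing5-/- hearts were below all 4 Ing4+/- hearts, and 3 of the 4 were below every other heart. Means were 91.9 ± 10.8 CPM in Ing4+/- Ing5-/- and 127 ± 8.58 CPM in Ing4+/- hearts (SD, n = 4 each). They were 113 ± 5.67 CPM in Ing5-/- and 113 ± 8.94 CPM in wild-type hearts. The Ing4+/- hearts thus had the highest mean, and differences from them are larger than those from wild-type hearts. Asb4 fell by 0.47 ± 0.08 on the log2 scale in Ing4+/- Ing5-/- against Ing4+/- hearts (edgeR adjusted p = 0.00543). It was called in this comparison under 25 of 25 other settings, with an adjusted p of 2.53e-05 to 0.0297, among them litter as a block (log2 fold change -0.49, adjusted p = 0.0150). In the 3 litters that held both genotypes, Asb4 stood at 86.7 CPM in the Ing4+/- Ing5-/- heart against 123 CPM in the Ing4+/- heart of litter 4, at 83.8 against 120.2 CPM in litter 6, and at 108 against 139.6 CPM in litter 7. Asb4 was thus lower in each of the 3 litters.

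Against wild-type hearts the log2 fold change of Asb4 in Ing4+/- Ing5-/- hearts was -0.30 ± 0.08 (edgeR adjusted p = 0.101). This missed the threshold of 0.05 with all 16 libraries, and passed it with DESeq2 (adjusted p = 0.0322), without Ing4+/- Ing5-/- 4 (0.0313) and without Ing5-/- 1 (0.0472). Those settings called 2.06%, 0.512% and 2.02% of all genes. It missed the threshold under the other 22 of 25 settings run, among them litter as a block (-0.31, adjusted p = 0.435). Levels of the 2 genotypes overlapped at 1 heart, Ing4+/- Ing5-/- 4. In the 2 litters with both genotypes, Asb4 stood at 86.7 CPM in the Ing4+/- Ing5-/- heart against 108 CPM in the wild-type heart of litter 4, and at 83.8 against 104 CPM in litter 6. Against Ing5-/- hearts the value was -0.29 ± 0.08 (edgeR adjusted p = 0.490), and -0.20 with litter as a block (adjusted p = 0.999). Litter 1 held Asb4 at 89.4 CPM in the Ing4+/- Ing5-/- heart against 117 and 108 CPM in its 2 Ing5-/- hearts, and in litter 7 both genotypes stood at 108 CPM. The difference between the Ing5 effects on the 2 Ing4 backgrounds (interaction) was -0.46 ± 0.11 (edgeR unadjusted p = 0.000643, adjusted p = 0.781), so it did not hold over all genes tested.

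Peg10 stood at 181, 206, 181 and 253 CPM in Ing4+/- Ing5-/- hearts, 409.8, 242, 269 and 244 CPM in Ing5-/- hearts, 322, 325, 247 and 332 CPM in Ing4+/- hearts, and 285, 257, 280.2 and 232 CPM in wild-type hearts. The Ing4+/- Ing5-/- hearts lay lowest but for 1 heart that overlapped the other genotypes. Its log2 fold change in Ing4+/- Ing5-/- against Ing4+/- hearts was -0.58 ± 0.16, which missed the threshold with all 16 libraries (edgeR adjusted p = 0.0958). Peg10 was called there without Ing5-/- 1 (adjusted p = 0.00757), with only the groups compared (0.0327) and with DESeq2 (0.00912), and not with litter as a block (0.261). Those 4 settings called 2.9%, 1.86%, 3.08% and 0.494% of all genes. In the same 3 litters it stood at 206 CPM in the Ing4+/- Ing5-/- heart against 325 CPM in the Ing4+/- heart of litter 4, at 181 against 247 CPM in litter 6, and at 253 against 332 CPM in litter 7. Against wild-type hearts its log2 fold change was -0.36 ± 0.16 (edgeR adjusted p = 0.398).

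Sgce, which shares its start region with Peg10, ranged from 49.3 to 54.9 CPM in Ing4+/- Ing5-/- hearts, 47.4 to 61.9 CPM in Ing5-/- hearts, 41.5 to 57.7 CPM in Ing4+/- hearts and 52.7 to 61.4 CPM in wild-type hearts. Ppp1r9a ranged from 58.6 to 66.7 CPM in Ing4+/- Ing5-/- hearts, 61.9 to 121 CPM in Ing5-/- hearts, 64.3 to 78.2 CPM in Ing4+/- hearts and 62.5 to 69.8 CPM in wild-type hearts. Neither gene was called: in Ing4+/- Ing5-/- against Ing4+/- hearts the log2 fold changes were -0.03 ± 0.10 for Sgce and -0.17 ± 0.15 for Ppp1r9a (edgeR adjusted p = 0.914 and 0.677). Fold changes of 4 of 4 cluster genes were below 0 in Ing4+/- Ing5-/- hearts against Ing4+/- and against wild-type hearts, 2 comparisons that share the Ing4+/- Ing5-/- libraries. Of all genes tested, 49.7% and 50.8% were above 0 in these comparisons. With litter as a block, Sgce was at 0.005 ± 0.11 against Ing4+/- hearts, and the other cluster genes stayed below 0.

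**Figure D2:**
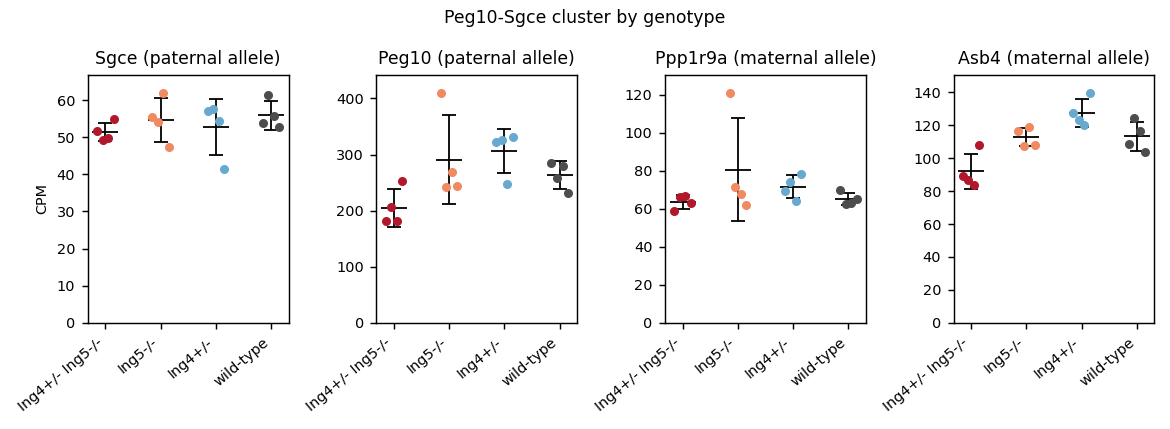
CPM of the 4 genes of the Peg10-Sgce cluster by genotype, with 1 point per heart and bars for mean ± SD (n = 4). Asb4 is lower in all 4 Ing4+/- Ing5-/- hearts (83.8 to 108 CPM) than in all 4 Ing4+/- hearts (120.2 to 139.6 CPM), while Sgce overlaps between all genotypes.

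Promoter windows of 250 bases before to 50 bases after a start were given by RefSeq (GRCm38.p6) for 28 of the 34 genes, in 41 windows. H19, Cdkn1c, Rtl1, Peg10, Sgce and Impact had no window. The 250 bases before the 2 RefSeq starts of Asb4, the gene that edgeR called with all 16 libraries, are shown 5′ to 3′ on the plus strand, with CG dinucleotides, the sites of DNA methylation, in capitals. The first is chr6:5383136-5383385 and the second chr6:5390160-5390409.
Asb4, first start: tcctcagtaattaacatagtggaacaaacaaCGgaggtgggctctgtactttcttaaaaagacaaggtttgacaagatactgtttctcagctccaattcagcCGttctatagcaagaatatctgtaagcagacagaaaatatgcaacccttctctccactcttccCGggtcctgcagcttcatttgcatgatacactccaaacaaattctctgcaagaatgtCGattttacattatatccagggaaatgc
Asb4, second start: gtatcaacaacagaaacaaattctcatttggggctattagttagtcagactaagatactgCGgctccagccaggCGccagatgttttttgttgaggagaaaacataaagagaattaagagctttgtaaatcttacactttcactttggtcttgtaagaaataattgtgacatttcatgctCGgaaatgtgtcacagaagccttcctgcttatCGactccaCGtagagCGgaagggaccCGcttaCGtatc
The whole windows held 6 and 8 CG dinucleotides, against a median of 7 over 32851 windows of all genes. By contrast, a start of Mest, the second most abundant imprinted gene here, is preceded by a window with matches to TGCCGC (searched on both strands, with the reverse complement GCGGCA), the core letters of the motif bound by ZFP57, which maintains imprints. It is shown 5′ to 3′ on the plus strand, chr6:30737800-30738049, with the matches in capitals.
Mest: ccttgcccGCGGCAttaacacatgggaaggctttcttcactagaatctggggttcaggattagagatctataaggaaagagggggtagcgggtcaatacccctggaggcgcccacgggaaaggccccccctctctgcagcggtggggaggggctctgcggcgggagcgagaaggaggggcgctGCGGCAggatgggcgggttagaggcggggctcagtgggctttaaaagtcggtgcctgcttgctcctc
The hexamer contains a CG dinucleotide and was found in 10 of the 41 windows (24.4%), of 9 genes, and in 11.6% of all windows. The 10 include 2 overlapping windows of Mest. They held 7 to 45 CG dinucleotides, against the median of 7 over all windows. The 2 shares were not matched for CG content, so they do not show that the motif is enriched. Neither window of Asb4 held it. The start region shared by Peg10 and Sgce, of the same cluster, had no window and was not searched.

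Across the list, Asb4 was the 1 gene of 32 called in Ing4+/- Ing5-/- against Ing4+/- hearts, where 1.16% of all genes tested were called, and 0.399% as lower. At an unadjusted p under 0.05 were 6 of 32, against 13.9% of all genes. The median log2 fold change of the 32 was -0.0613, against -0.00128 over all genes tested. Levels of the 2 genotypes did not overlap for 4 of 32 genes, against 10.1% of all genes: H19 was higher in Ing4+/- Ing5-/- hearts, and Zim1, Asb4 and Impact were lower. In Ing4+/- Ing5-/- against wild-type hearts, edgeR called 0 of 32 genes and 0.855% of all genes, with 2 of 32 at an unadjusted p under 0.05 (11.4% of all genes). DESeq2 called 1 of 32 there, Asb4, and 2.06% of all genes. The median of the 32 was -0.0192 against 0.00274 over all genes. Peg3 and Grb10 were lower without overlap (2 of 32, against 10.2% of all genes). Against Ing4+/- hearts, DESeq2 called 2 of 32 genes, Asb4 and Peg10, and 3.08% of all genes.

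Fold changes lay on both sides of 0 in both parental classes. In Ing4+/- Ing5-/- against Ing4+/- hearts, 12 of 17 paternally expressed genes were below 0 with a median of -0.0495, and 9 of 14 maternally expressed genes were below 0 with a median of -0.0982. Against wild-type hearts, 10 of 17 paternally expressed genes were below 0 (median -0.056) and 8 of 14 maternally expressed genes (median -0.0192). Of all genes tested, 49.7% were above 0 against Ing4+/- hearts and 50.8% against wild-type hearts. The classes include genes whose imprinting is known only in part. These are 4 of the 14 maternally expressed genes (Cd81, Copg2, Ppp1r9a and Ube3a), and Ddc and Inpp5f of the paternally expressed genes. The called gene, Asb4, is maternally expressed, and 0 paternally expressed genes were called in either comparison by edgeR. The difference between the parental classes was not tested.

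**Figure D3:**
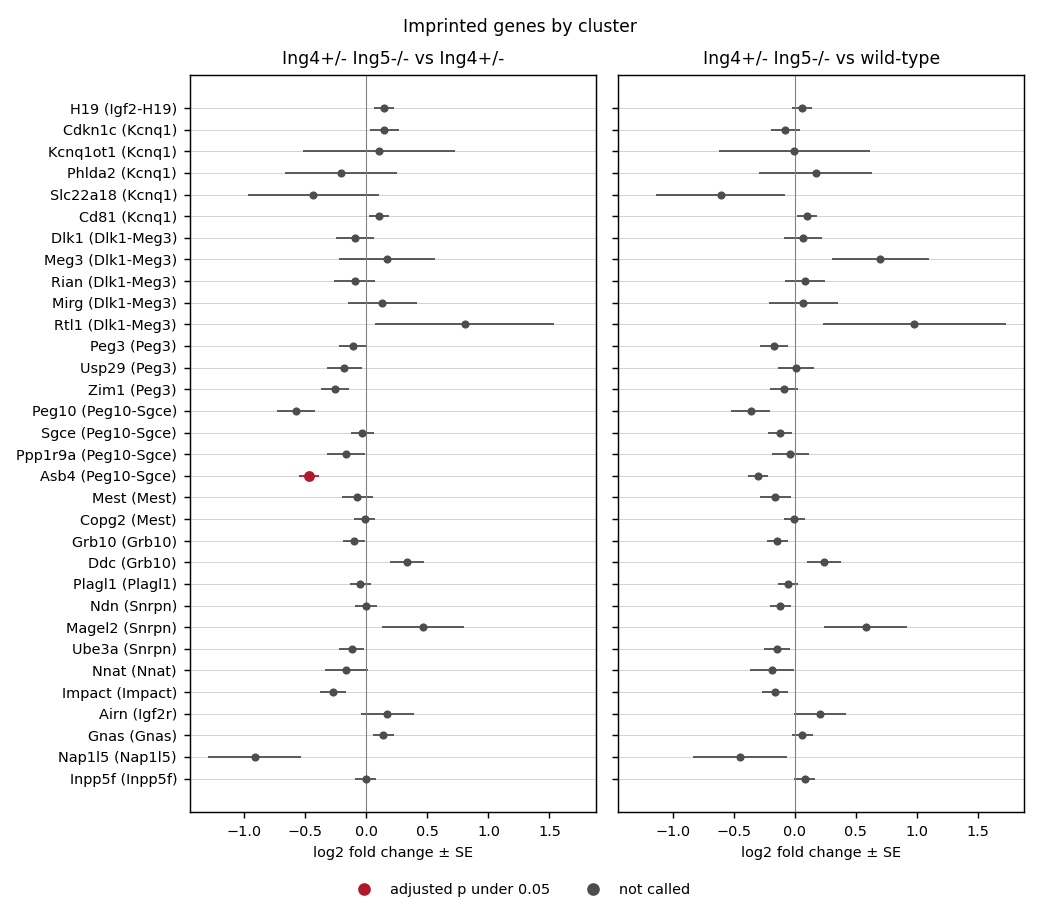
log2 fold change ± SE of the 32 imprinted genes tested, ordered by cluster, in Ing4+/- Ing5-/- hearts against Ing4+/- hearts (left) and against wild-type hearts (right). Asb4 against Ing4+/- hearts (-0.47 ± 0.08) is the 1 point called, and the widest bars are those of Rtl1, Kcnq1ot1 and Slc22a18.

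H19 and Igf2 lie in 1 cluster on chromosome 7. H19 (gene ID 14955, chr7:142575530-142578146) is a maternally expressed long non-coding RNA that restrains growth and hosts a microRNA, and Igf2 encodes the paternally expressed insulin-like growth factor 2. H19 stood at 10701, 10439.5, 10721 and 10707 CPM in Ing4+/- Ing5-/- hearts, 10075, 10971, 10543 and 10375 CPM in Ing5-/- hearts, 9802, 9553, 9792 and 9299 CPM in Ing4+/- hearts, and 9278, 10999.8, 10214 and 10308 CPM in wild-type hearts. The Ing4+/- Ing5-/- hearts all lay above the Ing4+/- hearts, by 0.15 ± 0.08 on the log2 scale, which did not pass the test (edgeR adjusted p = 0.440). H19 had the narrowest range of the 32 genes, with the highest heart at 1.19 times the lowest.

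Igf2 stood at 6209, 5682, 6453 and 6839 CPM in Ing4+/- Ing5-/- hearts, 5863, 6644, 6424 and 6147 CPM in Ing5-/- hearts, 7033, 6720.2, 6221 and 6178 CPM in Ing4+/- hearts, and 6144, 6407, 6498 and 6418 CPM in wild-type hearts. Its genotypes overlapped, and its log2 fold change in Ing4+/- Ing5-/- against wild-type hearts was -0.02 ± 0.08 (edgeR adjusted p = 0.965). Igf2r, the maternally expressed receptor that clears the growth factor, stood at 2293, 3326, 2942 and 2666 CPM in Ing4+/- Ing5-/- hearts, 2036, 2977, 2747 and 2517 CPM in Ing5-/- hearts, 2361, 2198, 2130.3 and 2463 CPM in Ing4+/- hearts, and 2623, 2582, 2465 and 2836 CPM in wild-type hearts. It was not called either: its log2 fold change was 0.29 ± 0.12 in Ing4+/- Ing5-/- against Ing4+/- hearts (edgeR adjusted p = 0.248). Airn, the paternally expressed non-coding RNA that runs antisense through Igf2r and silences it in cis, stood at 22.3, 22.2, 20.6 and 19.4 CPM in Ing4+/- Ing5-/- hearts, 45.2, 21.9, 22.1 and 18.2 CPM in Ing5-/- hearts, 19.1, 21.3, 16.3 and 18.3 CPM in Ing4+/- hearts, and 21.3, 15.9, 16.5 and 19.6 CPM in wild-type hearts. Ing5-/- 1 was the highest heart for Airn and the lowest for Igf2r.

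Cdkn1c, an inhibitor of cyclin-dependent kinases, is the most abundant listed gene of the Kcnq1 cluster and is maternally expressed. It stood at 2607, 2081, 2724 and 2546 CPM in Ing4+/- Ing5-/- hearts, 1691, 2483, 2540.0 and 2371 CPM in Ing5-/- hearts, 2250.4, 2293, 2528 and 1917 CPM in Ing4+/- hearts, and 2409, 2981, 2519.6 and 2583 CPM in wild-type hearts. Genotypes overlapped, and its log2 fold change in Ing4+/- Ing5-/- against wild-type hearts was -0.08 ± 0.12 (edgeR adjusted p = 0.871). Kcnq1ot1 (gene ID 63830, chr7:143213111-143296547), the paternally expressed non-coding RNA that silences the cluster in cis, stood at 10.7, 9.30, 6.91 and 5.76 CPM in Ing4+/- Ing5-/- hearts, 58.0, 9.09, 13.4 and 4.85 CPM in Ing5-/- hearts, 6.65, 10.1, 6.75 and 6.84 CPM in Ing4+/- hearts, and 10.4, 10.1, 5.46 and 6.77 CPM in wild-type hearts. The library Ing5-/- 1 was above all 15 others, and the rest overlapped. Cd81, a tetraspanin of the cell surface, ranged from 292 to 386 CPM over the 16 hearts, and none of the comparisons called it. Phlda2, a growth restrainer of the placenta, and Slc22a18, a transporter, stayed below 3 CPM, with 8 to 80 and 7 to 41 reads a library, which gave them standard errors of 0.46 and 0.53 in Ing4+/- Ing5-/- against wild-type hearts.

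In the Dlk1-Meg3 cluster on chromosome 12, Dlk1 encodes a paternally expressed membrane protein related to Notch ligands, and Meg3, Rian and Mirg are maternally expressed non-coding RNAs. Rian was the most abundant per length, at 173, 214, 193 and 217 CPM in Ing4+/- Ing5-/- hearts, 348, 234, 195 and 179 CPM in Ing5-/- hearts, 213, 214, 190.1 and 235 CPM in Ing4+/- hearts, and 194, 198, 152 and 209 CPM in wild-type hearts. Meg3 varied more, at 98.1, 168, 148 and 113 CPM in Ing4+/- Ing5-/- hearts, 408, 166, 121 and 87.4 CPM in Ing5-/- hearts, 115, 135, 116 and 103 CPM in Ing4+/- hearts, and 93.3, 70.3, 60.1 and 101 CPM in wild-type hearts. All 4 Ing4+/- hearts were above all 4 wild-type hearts for Meg3, by 0.53 ± 0.40 on the log2 scale, a difference that did not pass the test (edgeR adjusted p = 0.963). Its log2 fold change in Ing4+/- Ing5-/- against wild-type hearts was 0.70 ± 0.40 (edgeR adjusted p = 0.548).

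Dlk1 stood at 77.2, 75.4, 86.1 and 110.1 CPM in Ing4+/- Ing5-/- hearts, 124, 125, 103 and 78.2 CPM in Ing5-/- hearts, 101, 90.8, 104 and 76.3 CPM in Ing4+/- hearts, and 68.5, 91.8, 80.1 and 91.3 CPM in wild-type hearts. Its genotypes overlapped in every comparison. Mirg ranged from 2.58 to 10.2 CPM over all hearts and was highest in Ing5-/- 1. Rtl1, a retrotransposon-derived gene, lies antisense to Meg3 and Rian, had 0 to 48 reads a library, and was at 0 reads in Ing4+/- 4, which allows up to 0.131 CPM by counting error.

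Peg3, a paternally expressed zinc-finger gene of chromosome 7, stood at 443, 461, 495 and 487 CPM in Ing4+/- Ing5-/- hearts, 831, 517, 551 and 491 CPM in Ing5-/- hearts, 527, 488, 492 and 530.2 CPM in Ing4+/- hearts, and 526, 502, 554 and 538 CPM in wild-type hearts. All 4 Ing4+/- Ing5-/- hearts were below all 4 wild-type hearts, but the log2 fold change of -0.17 ± 0.12 did not pass the test (edgeR adjusted p = 0.628). Usp29, which starts 96 bases from Peg3 on the other strand and resembles ubiquitin proteases, ranged from 6.63 to 11.1 CPM over the 16 hearts. Zim1, a maternally expressed zinc-finger gene of the same cluster, ranged from 59.8 to 74.1 CPM in Ing4+/- Ing5-/- hearts and from 79.7 to 82.2 CPM in Ing4+/- hearts, with a log2 fold change of -0.26 ± 0.11 (edgeR adjusted p = 0.315). Its levels in Ing5-/- hearts were 62.1 to 105 CPM, against 64.7 to 75.5 CPM in wild-type hearts.

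Mest, a paternally expressed gene of mesoderm that resembles hydrolases, stood at 4791, 4424, 5648 and 5270.1 CPM in Ing4+/- Ing5-/- hearts, 3414, 5956, 5006 and 4758 CPM in Ing5-/- hearts, 5244, 5269, 5399 and 5267 CPM in Ing4+/- hearts, and 5421, 5829, 5186 and 6019 CPM in wild-type hearts. Ing5-/- 1 was the lowest of all hearts, and the genotypes overlapped. Copg2, a subunit of the vesicle coat that overlaps Mest on the other strand, ranged from 99.8 to 162 CPM, lowest in the same heart. In Ing4+/- Ing5-/- against wild-type hearts the log2 fold change of Mest was -0.16 ± 0.12 (edgeR adjusted p = 0.687).

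Grb10, a maternally expressed adaptor that dampens insulin and growth factor receptors, stood at 1994, 2083, 1996 and 2205 CPM in Ing4+/- Ing5-/- hearts, 1628, 2253, 2196 and 2159 CPM in Ing5-/- hearts, 2183, 2196, 2212 and 2283 CPM in Ing4+/- hearts, and 2326, 2212, 2266 and 2326 CPM in wild-type hearts. All 4 Ing4+/- Ing5-/- hearts were below all 4 wild-type hearts, by a margin that did not pass the test (log2 fold change -0.14 ± 0.09, edgeR adjusted p = 0.590). Its neighbour Ddc makes the enzyme that decarboxylates aromatic amino acids, and in mouse heart 1 of its transcripts is paternally expressed. Ddc ranged from 40.4 to 50.6 CPM in Ing4+/- Ing5-/- hearts and from 29.5 to 45.1 CPM in Ing4+/- hearts, with a log2 fold change of 0.33 ± 0.14 (edgeR adjusted p = 0.290). Without the 3 libraries that stood apart this became 0.51 with an adjusted p of 0.0479, where 1.26% of all genes were called. With litter as a block it was 0.20 (adjusted p = 0.592).

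Plagl1, a paternally expressed zinc-finger factor that regulates other imprinted genes, stood at 529, 645, 594 and 639 CPM in Ing4+/- Ing5-/- hearts, 474, 589, 502 and 549 CPM in Ing5-/- hearts, 610.0, 631, 580.4 and 670.2 CPM in Ing4+/- hearts, and 650.5, 569, 624 and 659 CPM in wild-type hearts. Its lowest values, 474 and 502 CPM, were in Ing5-/- hearts, whose levels overlapped those of every other genotype. The log2 fold change in Ing5-/- against wild-type hearts was -0.24 ± 0.08, which did not pass over all genes (edgeR adjusted p = 0.402). Gnas, which encodes the stimulatory G protein subunit and imprinted transcripts of either origin, stood at 1976, 1844, 2006 and 1962 CPM in Ing4+/- Ing5-/- hearts, 1464, 1786, 1916 and 1841 CPM in Ing5-/- hearts, 1816, 1779, 1879.5 and 1595 CPM in Ing4+/- hearts, and 1786, 1914, 1957 and 1796 CPM in wild-type hearts. The counts of Gnas merge its transcripts, and its genotypes overlapped. Its log2 fold change in Ing4+/- Ing5-/- against wild-type hearts was 0.06 ± 0.09 (edgeR adjusted p = 0.841).

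Of the Snrpn cluster, Ndn, which encodes the growth suppressor necdin, stood at 172, 134, 177 and 185 CPM in Ing4+/- Ing5-/- hearts, 159.6, 164, 203 and 174 CPM in Ing5-/- hearts, 171, 169, 169 and 161 CPM in Ing4+/- hearts, and 172, 192, 181 and 177 CPM in wild-type hearts. The 4 Ing4+/- hearts were below the 4 wild-type hearts by 0.11 ± 0.09 on the log2 scale, which did not pass the test (edgeR adjusted p = 0.963). Magel2, a ubiquitin ligase regulator, had 13 to 68 reads a library. Ube3a, a ubiquitin ligase whose paternal copy is silent in neurons, ranged from 78.3 to 133 CPM, with its extremes in Ing5-/- 1 and Ing4+/- 4. Nnat, a small membrane protein, stood at 74.0, 52.9, 64.0 and 70.1 CPM in Ing4+/- Ing5-/- hearts, 142, 83.7, 88.3 and 66.4 CPM in Ing5-/- hearts, 79.0, 76.1, 68.8 and 68.7 CPM in Ing4+/- hearts, and 66.7, 83.4, 76.9 and 70.1 CPM in wild-type hearts. Its highest value was in Ing5-/- 1 and its lowest in Ing4+/- Ing5-/- 2.

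Impact, a paternally expressed regulator of the translation kinase GCN2, stood at 38.2, 35.2, 34.3 and 39.9 CPM in Ing4+/- Ing5-/- hearts, 53.3, 40.4, 41.2 and 38.1 CPM in Ing5-/- hearts, 40.5, 43.4, 44.8 and 49.9 CPM in Ing4+/- hearts, and 42.0, 36.0, 39.2 and 47.6 CPM in wild-type hearts. The Ing4+/- Ing5-/- hearts lay below the Ing4+/- hearts, with a log2 fold change of -0.27 ± 0.11 that did not pass over all genes (edgeR adjusted p = 0.239). Inpp5f, an inositol phosphatase with an imprinted transcript, stood at 27.9, 28.1, 26.6 and 27.0 CPM in Ing4+/- Ing5-/- hearts, 30.9, 23.0, 26.9 and 25.7 CPM in Ing5-/- hearts, 25.3, 29.4, 26.5 and 28.8 CPM in Ing4+/- hearts, and 26.7, 25.0, 27.0 and 24.9 CPM in wild-type hearts, and its genotypes overlapped. Nap1l5, a small gene within an intron of Herc3, stood at 1.66, 1.78, 1.00 and 1.21 CPM in Ing4+/- Ing5-/- hearts, 1.92, 1.91, 1.55 and 1.00 CPM in Ing5-/- hearts, 1.39, 1.84, 1.92 and 5.58 CPM in Ing4+/- hearts, and 2.60, 1.59, 1.74 and 1.83 CPM in wild-type hearts. Its 1 high value was in Ing4+/- 4. Rasgrf1, an exchange factor for RAS, stood at 0.169, 0.374, 0.409 and 0.125 CPM in Ing4+/- Ing5-/- hearts, 0.488, 0.191, 0.317 and 0.0861 CPM in Ing5-/- hearts, 0.188, 0.109, 0.167 and 0 CPM in Ing4+/- hearts, and 0.0927, 0, 0.0379 and 0.356 CPM in wild-type hearts, too low to compare.

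Ing5-/- against wild-type hearts gave 0 of 32 imprinted genes called by edgeR (0.0127% of all genes were called) and 0 by DESeq2 (0.272%), with 8 of 32 at an unadjusted p under 0.05, against 9.59% of all genes. The 5 genes of the Dlk1-Meg3 cluster all had positive log2 fold changes, from 0.35 for Rian to 1.37 for Rtl1. Several of the positive values moved without Ing5-/- 1. Without it, the log2 fold change of Kcnq1ot1 was 0.14 in place of 1.38, that of Airn 0.18 in place of 0.55, and that of Meg3 0.62 in place of 1.27. The other genes of the Dlk1-Meg3 cluster then had 0.30 for Dlk1 in place of 0.38, 0.11 for Rian in place of 0.35, 0.29 for Mirg in place of 0.71 and 0.60 for Rtl1 in place of 1.37. Those of Peg3, Peg10, Zim1, Impact and Inpp5f changed sign, and the count at an unadjusted p under 0.05 was 3 in place of 8 (5.19% of all genes). Groups overlapped for all 32 genes, against 4.74% of all genes whose groups did not. No litter held hearts of both genotypes, so effects of litter and genotype could not be fully told apart here. With litter as a block, the log2 fold changes were 0.57 ± 1.14 for Kcnq1ot1, 0.27 ± 0.36 for Airn, 1.19 ± 0.76 for Meg3 and 0.36 ± 0.32 for Dlk1. Those of Rian, Mirg and Rtl1 were 0.18 ± 0.35, 0.38 ± 0.56 and 1.55 ± 1.37. None of these genes was called there (edgeR adjusted p = 0.9127 to 0.9741).

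Other RNAs also set Ing5-/- 1 apart. Its Malat1 level, a nuclear RNA, was 558 CPM against 42.0 to 167 CPM in the other hearts. Its summed epicardial markers (15 of 15 genes read) reached 2440 CPM against 951 to 1370 CPM, and its cardiomyocyte sum of 22100 CPM was the lowest. Its summed liver markers reached 68.7 CPM, but Ing5-/- 2, from the same litter, also stood high at 53.5 CPM, against 17.4 to 36.8 CPM in the rest. Zfp57, which binds and protects imprints, stood at 79.9 CPM there against 28.4 to 45.3 CPM elsewhere. The part of these in the levels of imprinted genes was not tested. In whole hearts, fewer cells of a type and less RNA per cell cannot be told apart.

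**Figure D4:**
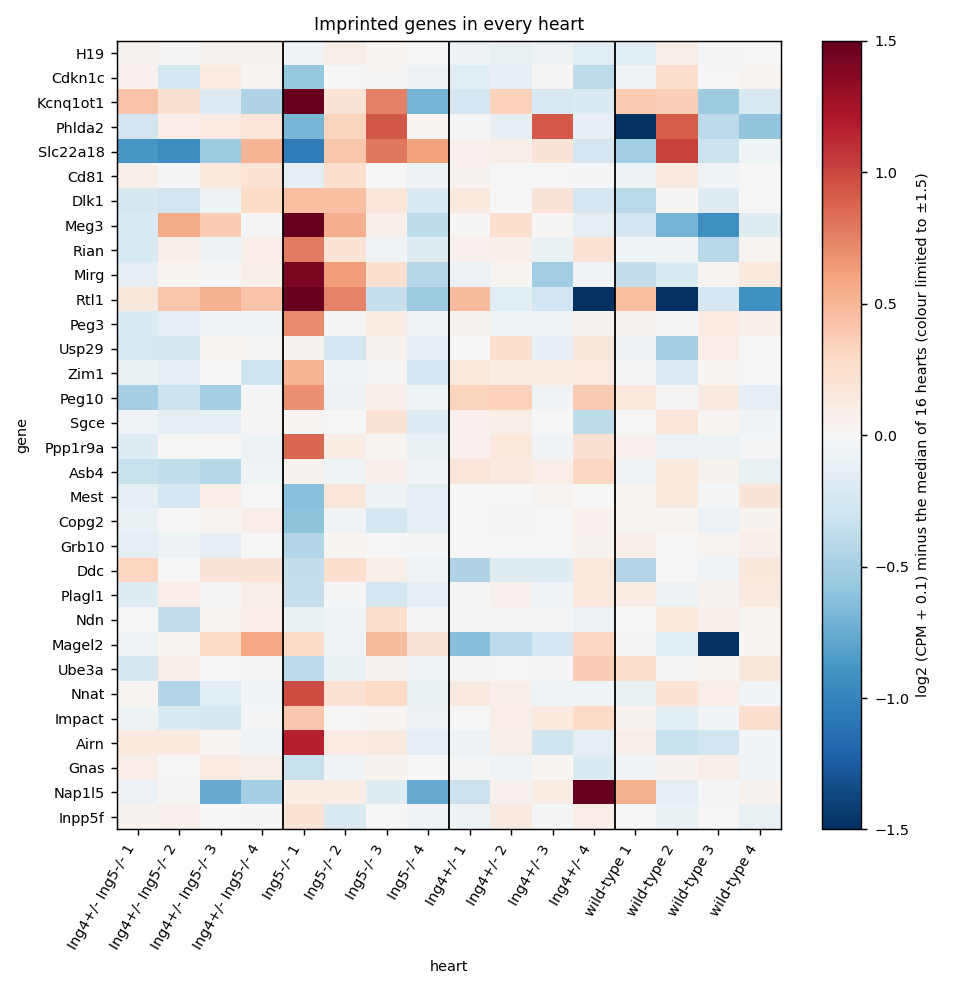
log2 (CPM + 0.1) of the 32 imprinted genes tested in each of the 16 hearts, relative to the median of that gene (red higher, blue lower, colour limited to ±1.5). The column of Ing5-/- 1 stands out, with Kcnq1ot1, Meg3, Mirg, Airn and Nnat high and Mest, Cdkn1c, Copg2 and Grb10 low, and Asb4 is low in Ing4+/- Ing5-/- 1, 2 and 3.

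**Figure D5:**
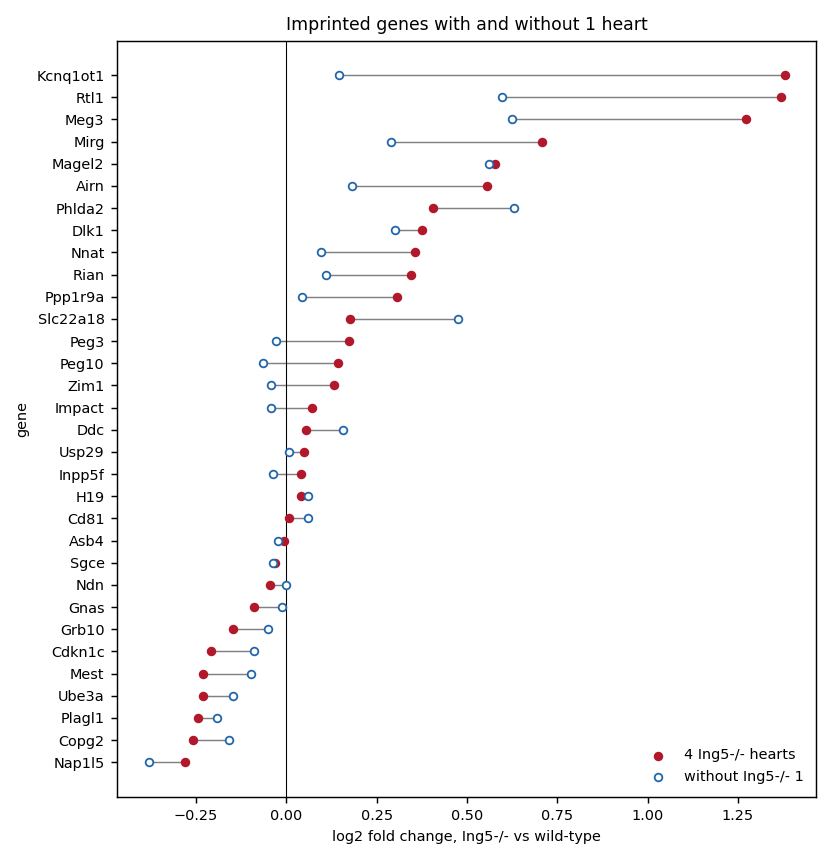
log2 fold change of the 32 imprinted genes in Ing5-/- against wild-type hearts with all 4 Ing5-/- hearts (filled) and without Ing5-/- 1 (open), ordered by the first. The largest shift is that of Kcnq1ot1 (1.38 with and 0.14 without that heart).

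Loss of 1 Ing4 allele was compared in both Ing5 backgrounds. In Ing4+/- against wild-type hearts, edgeR called 0 of 32 imprinted genes (0% of all genes were called) and DESeq2 called 0 (0.019%), with 1 of 32, Asb4, at an unadjusted p under 0.05, against 4.73% of all genes. The log2 fold change of Asb4 there was 0.17 ± 0.08 (edgeR adjusted p = 0.963). Levels did not overlap for 3 of 32 genes (Meg3 and Zim1 higher, Ndn lower), against 3.78% of all genes. In Ing4+/- Ing5-/- against Ing5-/- hearts, edgeR called 0 of 32 (0.00634% of all genes were called) and DESeq2 0 (0.12%), with 10 of 32 at an unadjusted p under 0.05 and 6 of 32 without Ing5-/- 1, against 6.63% and 4.11% of all genes. The median of the 32 log2 fold changes was -0.196 there, and -0.053 without Ing5-/- 1. Groups overlapped for all 32 genes, against 3% of all genes whose groups did not. For the interaction, edgeR called 0 of 32 genes and DESeq2 0 (0% and 0.0443% of all genes), with 6 of 32 at an unadjusted p under 0.05, against 5.88%.

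A wider list of 47 other imprinted genes had 43 in the table and 36 tested, and edgeR called 0 of 36 in each of the 5 pairwise comparisons made. Of all genes, edgeR called 0.855% in Ing4+/- Ing5-/- against wild-type hearts, 1.16% against Ing4+/- hearts and 0.00634% against Ing5-/- hearts, and 0.0127% in Ing5-/- and 0% in Ing4+/- against wild-type hearts. At an unadjusted p under 0.05 were 4, 5, 4, 1 and 1 of the 36 in the same order. The shares of all genes were 11.4%, 13.9%, 6.63%, 9.59% and 4.73%. In Ing4+/- Ing5-/- against Ing4+/- hearts, these 5 of 36 stood against 13.9% of all genes, and the median log2 fold change was 0.0169, against -0.00128 over all genes. Of 26 genes that set, read or protect imprints, 23 were tested and edgeR called 0, with 2 at an unadjusted p under 0.05 in the same comparison, where 1.16% of all genes were called and 13.9% had such a p. Among them Zfp57 had a log2 fold change of 0.14 ± 0.20, Trim28, its corepressor, of 0.08 ± 0.08, and Dnmt1, the maintenance methyltransferase, of 0.06 ± 0.08 (edgeR adjusted p = 0.817, 0.688 and 0.764).

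Summed markers of some other cells differed in the comparison in which Asb4 fell, and those of others overlapped. Of all genes tested there, edgeR called 1.16%, and 49.7% had a log2 fold change above 0. Summed macrophage markers (12 of 12 genes tested) ranged from 41.8 to 64.6 CPM in Ing4+/- Ing5-/- hearts and from 14.3 to 21.3 CPM in Ing4+/- hearts, with none at 0 in the first and up to 4 of 12 at 0 reads in a heart of the second, and 2 of them were called higher, Laptm5 and Csf1r. Summed epicardial markers (15 of 15) ranged from 951 to 1090 CPM in Ing4+/- Ing5-/- hearts and from 1120 to 1370 CPM in Ing4+/- hearts, with 13 of 15 fold changes below 0, while Krt19, an epithelial keratin, was called higher (log2 fold change 1.03 ± 0.12, edgeR adjusted p = 0.000174). Summed endothelial markers (11 of 11) ranged from 1290 to 1750 CPM in Ing4+/- Ing5-/- hearts and from 1360 to 1460 CPM in Ing4+/- hearts. Summed red-cell markers (10 of 10) ranged from 7930 to 49600 CPM in Ing4+/- Ing5-/- hearts and from 4930 to 19900 CPM in Ing4+/- hearts. The endothelial and red-cell ranges thus overlapped. So did cardiomyocyte (30000 to 35000 against 30100 to 32300 CPM) and mesenchyme sums (1930 to 2350 against 2040 to 2400 CPM). Neural (31.7 to 45.2 against 38.2 to 43.8 CPM) and liver sums (29 to 36 against 20.5 to 36.8 CPM) overlapped as well. Skeletal muscle genes (8 in the table, of which 2 tested) summed to 27.8 to 32.4 CPM in Ing4+/- Ing5-/- hearts and 16.7 to 21.7 CPM in Ing4+/- hearts, with Myod1 and Msc at 0 reads in all 4 of the Ing4+/- hearts, Myf5, Myog and Msc at 0 reads in all 4 Ing4+/- Ing5-/- hearts, and Tnnt3 called higher. Their part in the level of Asb4 was not tested.

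The genes whose log2 CPM most resembled Asb4 over the 16 hearts were Ncald (Pearson r = 0.895), Sh3rf3 (0.876) and Wasf3 (0.875), chosen among all genes tested as the highest r, and the hearts share litters and genotypes. Of the 34 genes, 7 lie on chromosome 6 with Ing4, the nearest of them 66.1 Mb away, and 0 on chromosome 1 with Ing5. The strand setting used in counting is not given in the sources used here, so reads of overlapping antisense pairs (Kcnq1ot1 and Kcnq1, Airn and Igf2r, Mest and Copg2, Nnat and Blcap, Nap1l5 and Herc3, Rtl1 and Meg3, Ube3a and Snhg14) could not be told apart with certainty.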

How the data were processed

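Hearts of E10.5 embryos gave total RNA and stranded libraries, per the labels. The authors deposited raw counts of reads per gene, with the gene length in bases (other) beside them, once for the whole series and once per sample; the 16 tables of samples were equal to the series table. The submitters' processing notes name bcl2fastq and featureCounts, without versions, and the build mm10. Aligner, annotation and strand setting: not given in the sources used here. RefSeq names matched 92.99% of 27179 gene IDs, and RefSeq (GRCm38.p6) gave positions and promoters.

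Tools were R 4.3.3, edgeR 4.0.16, limma 3.58.1, DESeq2 1.42.0 (as an alternative), Python 3.11.15 and matplotlib 3.10.9. After edgeR's filter on low counts (15785 genes kept; TMM factors 0.967 to 1.08), 4 group means were fitted to 16 libraries with the robust quasi-likelihood model, and the Benjamini-Hochberg threshold was 0.05. Ing5-/- hearts were not compared directly with Ing4+/- hearts. RPKM divides CPM by the deposited gene length in kb. The model was tested on simulated data. Chi-square per degree of freedom between libraries of 1 genotype was 6.39 to 102, so none was a copy of another. Each library is 1 embryo. Limits from 0 reads (3 counts) cover counting error only.

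The genes, lists and tests were chosen with earlier results of these data known. Values in every heart are given for called genes, for the gene of each cluster with the highest RPKM, and for Cdkn1c, H19, Kcnq1ot1, Dlk1, Meg3, Peg3, Grb10, Plagl1, Igf2r and Igf2; called genes of the marker lists are named, at most 4 a list. Alternatives were other size factors and filters, DESeq2, only the groups compared, litter or replicate number as a block, Y-linked genes as a covariate, and each library left out. Leaving out 3 libraries together was chosen after seeing the data. Of 24 pairs of hearts that share a number across genotypes, 5 had deviations from the group means correlated over 0.1, so numbers were not taken as pairs.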

Additional observations from a re-analysis of the deposited data

Results flagged for a closer look

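In 128 groups of 4 hearts (32 genes in 4 genotypes), 13 values lay far from the other 3 of their genotype by Dixon's test; chance flags about 1 group in 20. Of these, 5 were in Ing5-/- 1, where Kcnq1ot1 stood at 58.0 CPM against 4.85 to 13.4 CPM in the other Ing5-/- hearts. Peg10 stood at 409.8 CPM there against 242 to 269 CPM. Ppp1r9a stood at 121 CPM against 61.9 to 71.6 CPM, and Airn at 45.2 CPM against 18.2 to 22.1 CPM. Grb10 was low there, at 1628 CPM against 2159 to 2253 CPM. So Ing5-/- 1 was high for Peg10 and Ppp1r9a of the Peg10-Sgce cluster and for the antisense RNAs Airn and Kcnq1ot1.

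The Ing4+/- hearts held 6 further values. Peg10 stood at 247 CPM in Ing4+/- 3 against 322 to 332 CPM in the other Ing4+/- hearts. In the same heart Mest stood at 5399 CPM against 5244 to 5269 CPM, and Phlda2 at 2.79 CPM against 1.30 to 1.39 CPM. Nap1l5 stood at 5.58 CPM in Ing4+/- 4 against 1.39 to 1.92 CPM, and Ube3a at 133 CPM against 101 to 103 CPM. Kcnq1ot1 stood at 10.1 CPM in Ing4+/- 2 against 6.65 to 6.84 CPM. Of the remaining 2, H19 stood at 10439.5 CPM in Ing4+/- Ing5-/- 2 against 10701 to 10721 CPM, and Copg2 at 142 CPM in wild-type 3 against 155 to 157 CPM. Asb4 had no such value in any genotype.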

How the results depend on the processing

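The count of imprinted genes called in Ing4+/- Ing5-/- against Ing4+/- hearts was 1 under 21 of 25 other settings. It was 2 with only the groups compared, with DESeq2 and without Ing5-/- 1 (Asb4 and Peg10), and 2 without the 3 libraries that stood apart (Asb4 and Ddc); over the settings that leave out 1 library it ranged from 1 to 2. Against wild-type hearts it was 0, and 1 (Asb4) with DESeq2, without Ing4+/- Ing5-/- 4 and without Ing5-/- 1; over the settings that leave out 1 library it ranged from 0 to 1. The other 4 comparisons gave 0 under every setting run. The fall of Asb4 against Ing4+/- hearts ranged from -0.56 to -0.40 on the log2 scale. With replicate number as a block it was -0.47 (adjusted p = 0.0111), and the block changed no call of an imprinted gene. The log2 fold change of Asb4 in Ing5-/- against wild-type hearts, -0.0073 with all libraries, ranged from -0.0464 to 0.0362 over the settings that leave out 1 library. The cause of these shifts was not tested. All-gene counts called in Ing4+/- Ing5-/- against Ing4+/- hearts were 183, and 486 with DESeq2, 461 without Ing5-/- 1, 282 with only the groups compared and 78 with litter as a block; against wild-type hearts they were 135, 325, 321, 465 and 15 in the same order. Depth limits Rtl1, Slc22a18, Phlda2, Magel2 and Nap1l5 (0 to 128 reads a library), whose fold changes have standard errors of 0.33 or more.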
